A study of Mus musculus with 7 samples.

Results

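The Wnt pathway genes described here are 38 genes fixed by name, a list made with earlier results of these data known. They are 4 Wnt ligands, 12 receptors and co-receptors, 9 cytoplasmic components, 4 nuclear factors, 7 antagonists and feedback inhibitors and 2 genes of ligand secretion. Their symbols were matched to the gene identifiers of the deposited counts, and all 38 were found among 55335 measured genes. The counts came from direct-cDNA nanopore sequencing of polyadenylated RNA, in which each long read is copied from RNA without amplification. The cells were mouse neural stem cells (NSCs) of the FVB/N strain, kept dividing in serum-free medium with the growth factors EGF and bFGF. There were 4 wild-type (WT) samples and 3 samples labelled Smchd1MommeD1 (*Smchd1*-null), a mutant allele of the gene for a chromatin repressor related to the SMC proteins. The age of the animals, their number and whether samples were separate cultures are not given in the sources used here, so p-values measure the spread between these samples, which may be technical. Batch 1 held WT replicate 2 with *Smchd1*-null replicates 1 and 2, batch 2 held *Smchd1*-null replicate 3 with WT replicates 3 and 4 and used a newer library kit, and WT replicate 1 was in both.

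Wnt proteins are secreted ligands that bind Frizzled receptors and the co-receptors Lrp5 and Lrp6 at the surface of a receiving cell. In the canonical branch, this binding engages the Dishevelled proteins and inhibits a complex of Axin, Apc and Gsk3 that otherwise marks beta-catenin for destruction. Stabilised beta-catenin (*Ctnnb1*) then acts in the nucleus with the Tcf and Lef factors, and several of its target genes (*Axin2*, *Lef1*, *Nkd1*, *Notum*, *Rnf43*, *Znrf3*) encode parts or inhibitors of the pathway itself. In the developing brain, Wnt signals are known to regulate the expansion and the fate of neural precursors.

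Library sizes ranged from 2.74 to 7.74 M counts and summed to 33.3 M. Levels are CPM, a gene's counts per mega-count of its library after TMM scaling, and a gene with 3 counts had between 0.399 and 1.13 CPM, depending on the library. The mutated gene itself was at 55.7 to 74.7 CPM in the WT samples and at 12.8 to 18.4 CPM in the *Smchd1*-null samples, without overlap. All 12 NSC markers, among them *Nes* and *Sox2*, had counts in every sample. Summed markers of microglia reached 2.06 CPM and those of endothelium 3.93 CPM at most, against 9560 to 14745 CPM for the NSC markers, and *C1qa* and *Lum* had no count. WT replicate 4 stood apart. Oligodendrocyte markers summed to 12.8 to 335 CPM in WT, highest in this library, against 10.5 to 26.0 CPM in the mutant. Its summed neuron and astrocyte markers were also the highest, but so were its summed NSC, microglia, and fibroblast and mural cell markers. Of the single neuron markers, *Tubb3*, *Dcx*, *Snap25* and *Syt1* were highest in this library, with *Dcx* at 36.2 CPM and *Snap25* at 7.37 CPM. *Rbfox3*, *Stmn2* and *Neurod1* were not, with *Rbfox3* at 2.74 CPM in this library and 5.51 CPM in WT replicate 3. Astrocyte markers summed to 335 to 946 CPM in WT and 247 to 404 CPM in the mutant, with 1 of 4 tested, *Aldoc*, called (adjusted p = 0.23), and neuron markers to 29.9 to 77.7 and 28.2 to 34.2 CPM. The part of these other cell types in the Wnt results was not tested. In these bulk samples, fewer cells of a type and less RNA per cell cannot be told apart.

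The NSCs carried RNA for every layer of the pathway. Divided by gene length, the members with the highest mean levels over the 7 samples were *Fzd9* at 13.6, *Wnt7a* at 13.0, *Apc* at 12.6, *Fzd10* at 11.9, *Dvl3* at 11.6 and *Gsk3a* at 11.4 CPM per kilobase. Their ranges over samples overlapped, so the order among these 6 genes is not firm. The lowest were *Lef1* at 0.0601, *Fzd6* at 0.0644 and *Rnf43* at 0.0700 CPM per kilobase, with 16, 11 and 17 counts in all 7 libraries together. Without division by length the order differed, and *Apc*, *Gsk3b*, *Fzd3*, *Dvl3* and *Wnt5a* came first, with *Fzd9* at rank 15. The study states that long-read protocols lack a fragmentation step and should in theory carry no bias from gene length. Levels per kilobase therefore place short genes higher than their read numbers do.

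**Figure D1:**
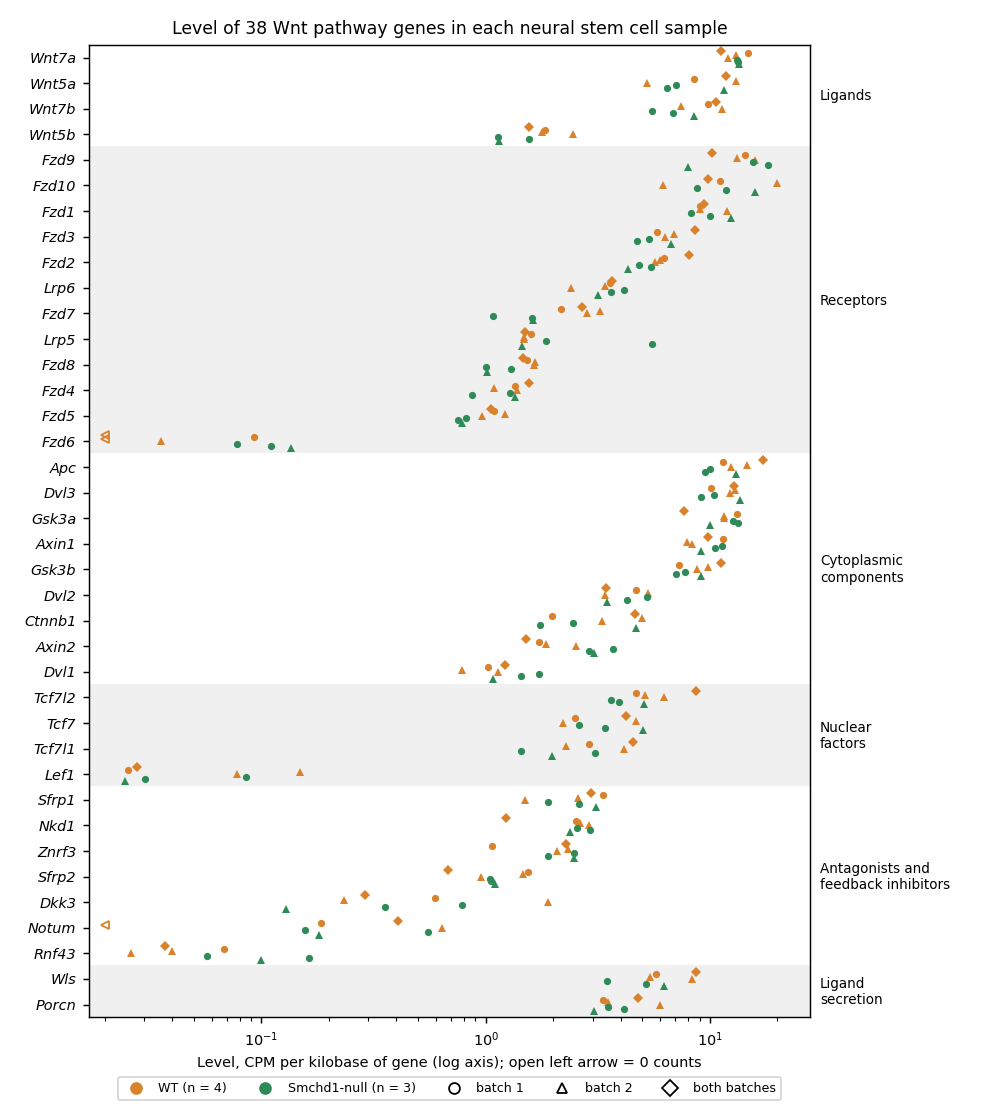
Level of each of the 38 Wnt pathway genes in CPM per kilobase of gene on a log axis, with 1 point per sample (orange, 4 WT; green, 3 *Smchd1*-null; the marker gives the batch) and genes ordered by mean level within their role. Most members lie between 1 and 20 CPM per kilobase, while *Fzd6*, *Lef1* and *Rnf43* lie near or below 0.1, and *Fzd6* and *Notum* have samples with 0 counts.

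Genotypes were compared by limma with voom and sample weights over the 13305 genes that passed a filter on low counts. Of the 38 members, 33 passed, and *Fzd6*, *Lef1*, *Dkk3*, *Rnf43* and *Notum* did not. At the adjusted p-value cutoff of 0.25 used in the study, 1 member was called, the receptor gene *Fzd7*, which was lower in *Smchd1*-null NSCs. Over all tested genes, 1.08% were called at this cutoff in either direction, 0.609% lower and 0.474% higher. At a cutoff of 0.05 no member was called, against 0.0902% of all tested genes. With an unadjusted p under 0.05 there were 10 of 33 members (30.3%), against 13.9% of all tested genes. Of these, 8 were lower in *Smchd1*-null NSCs (*Wnt7b*, *Fzd3*, *Fzd7*, *Ctnnb1*, *Apc*, *Gsk3b*, *Tcf7l2* and *Wls*), against 6.74% of all genes in that direction, and 2 were higher (*Lrp5* and *Axin2*), against 7.11%. The members were chosen with earlier results of these data known, so their shares set against all genes are no independent test. Both counts depended on single libraries, for the members and for all genes. With an unadjusted p under 0.05 there were 5 of 33 members without WT replicate 1, against 8.22% of all tested genes, 3 of 33 without *Smchd1*-null replicate 1, against 3.33%, and 4 of 34 without *Smchd1*-null replicate 2, against 3.28%. There were 12 of 32 without WT replicate 2, against 21.1%, 8 of 33 without WT replicate 3, against 9.07%, 12 of 33 without WT replicate 4, against 10.7%, and 13 of 34 without *Smchd1*-null replicate 3, against 21.6%. The 1 call became 12 without WT replicate 2, where 22.7% of all tested genes were called, 13 without *Smchd1*-null replicate 3, where 23.5% were, and 0 without any of the other 5 samples. With the replicate number as a block, 2 of 33 members were called, *Axin2* and *Lrp5*, against 0.97% of all tested genes, and with the length trend also removed again these 2, against 1.32%. WT replicate 4 has no *Smchd1*-null sample of its number, so it did not inform the genotype difference in the block fits. Replicate 2 was in batch 1 and replicate 3 in batch 2 for both genotypes, so number and batch were partly mixed. The block terms also left less information on the spread between samples.

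The genotypes did not overlap in log-CPM for 6 of the 33 members (18.2%), against 5.53% of all tested genes. The limit of a list chosen with earlier results known holds for this comparison too. *Wnt5b*, *Fzd2*, *Fzd5*, *Fzd7* and *Fzd8* were lower in every *Smchd1*-null sample, where the background in that direction was 3.01%, and *Axin2* was higher in each, where it was 2.52%. Over all 33 members, 21 fold changes were below 0 and 12 above, with a median log2 fold change of -0.14, while 49.4% of all tested genes were below 0. Fitted fold changes weight the samples, so a fitted value can depart from the ratio of plain means. Weights were 1.06, 0.654, 1.29 and 0.447 for WT replicates 1 to 4. They were 2.03, 1.83 and 0.674 for *Smchd1*-null replicates 1 to 3. The highest weights thus went to the mutant samples of batch 1, while WT replicate 2, of batch 1 alone, had a low one. Genotype and batch are therefore partly mixed in the reported fit. Exons of *Wnt5a*, *Wnt7b*, *Fzd5*, *Fzd6*, *Dvl1*, *Dvl2*, *Ctnnb1*, *Axin2*, *Gsk3a*, *Tcf7l1*, *Lef1*, *Sfrp2* and *Notum* overlap those of a gene on the opposite strand, and no source says that strand was used in counting, so their counts are uncertain.

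**Figure D2:**
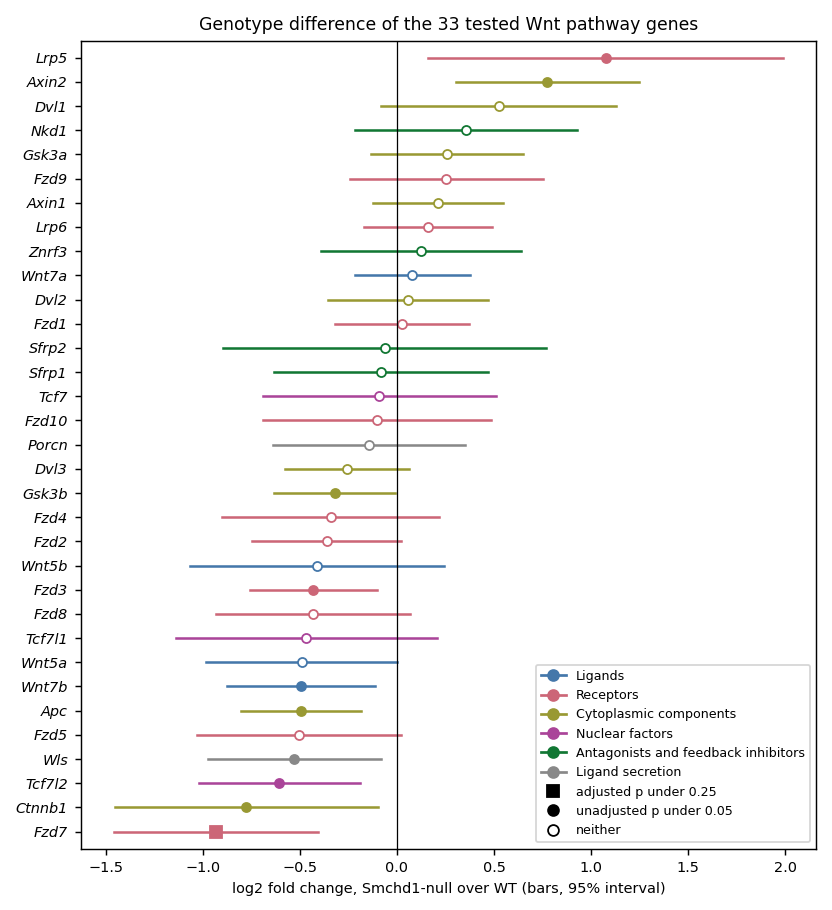
log2 fold change of the 33 tested Wnt pathway genes, *Smchd1*-null over WT, with the 95% confidence interval as a bar and the role as a colour. *Fzd7*, drawn as a square, is the single member with an adjusted p under 0.25, and *Lrp5* has the widest interval, from 0.16 to 1.99.

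Among the ligands, 4 members were tested and none was called. *Wnt7a*, a ligand known in the developing forebrain, had 35.4, 46.9, 41.4 and 38.2 CPM in WT replicates 1 to 4 and 42.0, 42.3 and 42.6 CPM in *Smchd1*-null replicates 1 to 3. The mutant values lay inside the WT range, and the log2 fold change was 0.08 ± 0.14 (SE), at an adjusted p of 0.808, with a 95% interval from -0.22 to 0.38. *Wnt7b*, its close relative, had 52.0, 48.0, 36.4 and 55.7 CPM in the WT samples and 27.0, 33.5 and 41.8 CPM in the mutant samples. WT replicate 3 was below *Smchd1*-null replicate 3, so the genotypes overlapped. *Wnt7b* had a log2 fold change of -0.49 ± 0.18 (SE), with an adjusted p of 0.30, and the difference of log-CPM was -0.66 within batch 1 and -0.11 within batch 2. Such differences leave out WT replicate 1, whose counts pool both batches, so batch 1 is read from WT replicate 2 alone, and the value with WT replicate 1 in the batch is given where the sign changed or the size moved by over 0.20.

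*Wnt5a*, best known for signalling that does not pass through beta-catenin, varied most among the ligands, with 92.6, 66.2, 103 and 41.2 CPM in the WT samples and 55.2, 50.6 and 90.7 CPM in the mutant samples. Its log2 fold change of -0.49 ± 0.23 (SE) had an adjusted p of 0.361, and the difference was -0.32 within batch 1, or -0.56 with WT replicate 1, and 0.48 within batch 2, of opposite sign. *Wnt5b* was scarce, at 4.15, 4.89, 4.72 and 6.52 CPM in WT and 3.00, 4.13 and 3.03 CPM in the mutant. The samples did not overlap, but the closest pair stood at 4.15 and 4.13 CPM and the mutant libraries held 8, 31 and 14 counts. The fold change of *Wnt5b* was -0.41 ± 0.30 on the log2 scale (SE, adjusted p = 0.538).

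Over all 19 Wnt ligand genes of the mouse genome, the libraries held 5387 counts, of which 93.3% came from *Wnt5a*, *Wnt7a* and *Wnt7b*, and 12 of the 19 genes had at most 30 counts in all libraries together. As a share of the CPM per kilobase of the 4 member ligands, *Wnt7a* made up 37.4% ± 4.42 (SD, n = 4) in WT and 45.1% ± 5.56 (SD, n = 3) in the mutant, and *Wnt7b* 29.0% ± 6.39 and 23.1% ± 2.29. These ranges overlapped between genotypes. Without division by length *Wnt5a* came first among the 4, at a mean of 75.6 CPM in WT and 65.5 CPM in the mutant. *Wnt7b* was then at 48.0 and 34.1 CPM and *Wnt7a* at 40.5 and 42.3 CPM.

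The receptors included the called member, *Fzd7*, a Frizzled receptor used in both branches of Wnt signalling. Its gene lies at chr1:59482424-59486955 (GRCm38, plus strand). The WT samples had 50, 44, 56 and 75 *Fzd7* counts, or 12.2, 9.77, 14.7 and 12.9 CPM. The mutant samples had 13, 55 and 34 counts, or 4.88, 7.32 and 7.36 CPM. Every mutant sample was below every WT sample, and the mean went from 12.4 ± 2.03 CPM (SD, n = 4) to 6.52 ± 1.42 CPM (SD, n = 3), which is 52.7% of WT. The log2 fold change was -0.93 ± 0.25 (SE), with a 95% interval from -1.46 to -0.41 and an adjusted p of 0.233. The difference of log-CPM had the same sign within both batches, -0.67 in batch 1 and -0.86 in batch 2.

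The call of *Fzd7* did not hold with other tests: its adjusted p was 0.858 by edgeR's quasi-likelihood test, 0.643 by DESeq2, 0.354 with batch as a covariate and 0.307 with the trend of fold change on gene length removed. Its log2 fold change stayed between -1.02 and -0.71 in all 19 alternative fits, and leaving out each sample in turn gave adjusted p-values from 0.0721 to 1.00. It was called without WT replicate 2 (0.0725) or *Smchd1*-null replicate 3 (0.0721) and not without WT replicate 1 (0.595), 3 (0.517) or 4 (0.367) or *Smchd1*-null replicate 1 (0.996) or 2 (1.00). As a share of the Frizzled family's CPM per kilobase, a measure taken within each library, *Fzd7* made up 4.94% ± 0.581 (SD, n = 4) in WT and 2.78% ± 0.429 (SD, n = 3) in the mutant. The shares of *Fzd5* (means of 1.96% in WT and 1.53% in the mutant) and *Fzd8* (2.86% and 2.14%) were also lower without overlap. These shares use the same counts as the fit and are no separate support.

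The RefSeq promoter windows of *Fzd7* and *Axin2*, the members with the smallest adjusted p-values in each direction, are shown because these genes lie at opposite ends of the pathway, a receptor and a beta-catenin target. Each is the 250 bases before the RefSeq start on the plus strand of GRCm38.p6, from chr1:59481897-59482146 for *Fzd7* and chr11:108920099-108920348 for *Axin2*. Capitals mark a match to the motif bound by Tcf and Lef factors, searched as CTTTG followed by 2 bases that are each A or T, on both strands, with letters chosen while these windows were in view.
Fzd7: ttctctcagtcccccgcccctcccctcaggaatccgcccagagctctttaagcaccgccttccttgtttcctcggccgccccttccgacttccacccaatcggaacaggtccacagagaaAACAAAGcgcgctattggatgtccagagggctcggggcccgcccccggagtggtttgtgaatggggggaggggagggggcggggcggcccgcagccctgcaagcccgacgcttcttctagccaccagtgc
Axin2: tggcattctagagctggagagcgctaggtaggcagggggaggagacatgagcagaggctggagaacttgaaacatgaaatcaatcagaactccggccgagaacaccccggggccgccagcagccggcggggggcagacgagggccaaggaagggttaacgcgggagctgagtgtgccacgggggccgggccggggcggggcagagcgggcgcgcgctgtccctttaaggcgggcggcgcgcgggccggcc

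The *Fzd7* window held 1 match on the minus strand, beginning 130 bases before the start, and the *Axin2* window held none. RefSeq windows were given for 23 of the 38 members, 32 windows in all, of which 5 held a match (15.6%), against 14.8% of the 32851 windows of all genes. The median share of G and C was 65.8% in the member windows and 52.4% in all windows. The motif is mostly A and T, so the shares with a match do not rest on a like base. The members with a match were *Fzd7*, *Gsk3a*, *Lef1*, *Tcf7l2* and *Wnt5b*. A match describes letters in a window and is no evidence of binding.

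The other Frizzled receptors differed widely in level. *Fzd9* and *Fzd10* were the most abundant per length. *Fzd9* had 23.4, 32.9, 30.2 and 36.4 CPM in WT and 35.7, 41.7 and 18.4 CPM in the mutant, and *Fzd10* had 32.0, 36.2, 64.5 and 20.1 CPM in WT and 28.5, 38.5 and 51.7 CPM in the mutant. Both varied more between samples of a genotype than between the genotype means, with log2 fold changes of 0.25 ± 0.23 (SE, adjusted p = 0.618) and -0.10 ± 0.27 (SE, adjusted p = 0.884), and the sign of both changed with the fit. *Fzd1* lay close to them, at 37.98 to 50.2 CPM in WT and 34.5 to 52.4 CPM in the mutant (log2 fold change 0.03).

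For *Fzd2*, *Fzd5* and *Fzd8*, as for *Fzd7*, every mutant sample was below every WT sample. *Fzd2* had 29.5, 22.9, 22.0 and 20.7 CPM in WT and 17.6, 20.1 and 15.8 CPM in the mutant (log2 fold change -0.36, SE 0.18, adjusted p = 0.379). *Fzd5* had 7.33, 7.55, 8.39 and 6.69 CPM in WT and 5.63, 5.19 and 5.41 CPM in the mutant (log2 fold change -0.50, SE 0.24, adjusted p = 0.376). *Fzd8* had 8.79, 9.11, 9.96 and 9.77 CPM in WT and 6.01, 7.72 and 6.06 CPM in the mutant (log2 fold change -0.43, SE 0.23, adjusted p = 0.407). None of the 3 passed the cutoff, and their mutant means were 75.0%, 72.3% and 70.1% of WT. The longest overlap of *Fzd5* with its antisense gene, *Gm38058*, is 619 bases.

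*Fzd3*, known for its part in axon growth and cell polarity, had the most counts of the family, with 110, 74.4, 88.9 and 81.1 CPM in WT and 68.7, 60.8 and 86.2 CPM in the mutant. *Smchd1*-null replicate 3 lay within the WT range, and the log2 fold change was -0.43 ± 0.15 (SE), at an adjusted p of 0.297, with differences of -0.20 within batch 1 and 0.02 within batch 2, or -0.48 and -0.10 with WT replicate 1. *Fzd4* was at 7.34 to 10.5 CPM in WT and 5.86 to 9.09 CPM in the mutant (log2 fold change -0.34). *Fzd6* had 0, 2, 0 and 1 counts in WT and 1, 4 and 3 counts in the mutant. The 2 WT libraries without a count allow up to 0.733 and 0.787 CPM. In the fit of all genes with a count, which had no filter, *Fzd6* was among the 8 of 38 members with an unadjusted p under 0.05, against 5.19% of all genes in that fit, and the smallest adjusted p of any member was 0.763.

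**Figure D3:**
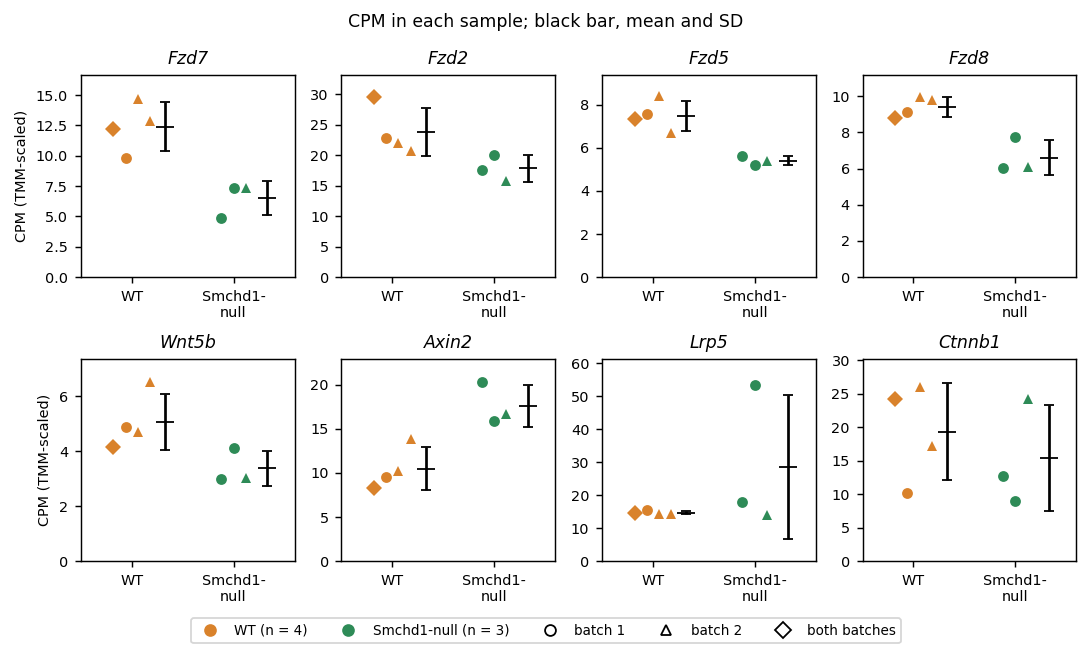
CPM of 8 members in each sample (orange, 4 WT; green, 3 *Smchd1*-null; the marker gives the batch), with the mean and SD of each genotype in black and every axis starting at 0. The genotypes do not overlap for *Fzd7*, *Fzd2*, *Fzd5*, *Fzd8*, *Wnt5b* and *Axin2*, while 1 *Smchd1*-null sample carries the difference of *Lrp5* and the samples of both genotypes mix for *Ctnnb1*.

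The co-receptor genes differed from each other. *Lrp5* had 14.7, 15.5, 14.4 and 14.4 CPM in WT and 18.02, 53.5 and 14.1 CPM in the mutant. *Smchd1*-null replicate 2 alone stood high, with 402 counts, and *Smchd1*-null replicate 3 was below all WT samples. *Lrp5* had a log2 fold change of 1.07 ± 0.43 (SE) and an adjusted p of 0.322, and without *Smchd1*-null replicate 2 it was 0.08. *Lrp6*, the co-receptor with more counts, was at 32.9 to 50.1 CPM in WT and 43.3 to 56.7 CPM in the mutant, a log2 fold change of 0.16 ± 0.15 (SE) with an adjusted p of 0.636.

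None of the 9 cytoplasmic components was called. *Axin2*, a scaffold of the destruction complex and a widely used readout of beta-catenin activity, came closest. The WT samples had 34, 43, 39 and 81 *Axin2* counts, or 8.30, 9.55, 10.2 and 13.9 CPM, and the mutant samples 54, 119 and 77 counts, or 20.3, 15.8 and 16.7 CPM. Every mutant sample was above every WT sample, and the mean went from 10.5 ± 2.40 CPM (SD, n = 4) to 17.6 ± 2.36 CPM (SD, n = 3). The log2 fold change was 0.78 ± 0.22 (SE), with a 95% interval from 0.31 to 1.25 and an adjusted p of 0.267, just above the cutoff. The difference of log-CPM was 0.88 within batch 1 and 0.47 within batch 2. Its log2 fold change lay between 0.65 and 0.87 in all alternative fits, and the adjusted p between 0.0993 and 1.00, with a call in 5 of 19 alternatives: without WT replicate 2 (0.126) or *Smchd1*-null replicate 3 (0.0993), with the replicate number as a block (0.220), with that block and the length trend removed (0.132), and with the batch covariate and the length trend removed (0.161). The gene lies at chr11:108920349-108950783 (GRCm38, plus strand), and its exons overlap the antisense gene *Gm11670* over 105 bases. *Axin1*, the other Axin, was at 30.2 to 44.0 CPM in WT and 35.1 to 43.2 CPM in the mutant (log2 fold change 0.21, adjusted p = 0.540).

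*Apc*, the large scaffold of the destruction complex, had the most counts of all members, with 278, 184, 236 and 201 CPM in WT and 161, 154 and 212 CPM in the mutant. *Smchd1*-null replicate 3 lay within the WT range. *Apc* had a log2 fold change of -0.49 ± 0.14 (SE) and an adjusted p of 0.275, the differences within batches were -0.23 and -0.04, with WT replicate 1 the first was -0.52, and with the length trend removed the fold change was -0.27. *Gsk3b*, the kinase of the complex, had 110, 71.7, 96.0 and 86.3 CPM in WT and 75.8, 69.3 and 89.4 CPM in the mutant. The fit gave -0.32 ± 0.15 on the log2 scale (SE) at an adjusted p of 0.349, while the differences within batches were 0.02 and -0.03, or -0.29 and -0.12 with WT replicate 1. *Gsk3a*, the second Gsk3 gene, was at 22.2 to 38.2 CPM in WT and 29.0 to 38.6 CPM in the mutant, and its exons overlap an antisense gene over 576 bases.

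*Ctnnb1*, which encodes beta-catenin itself, had 24.2, 10.2, 26.0 and 17.1 CPM in WT and 12.8, 9.05 and 24.2 CPM in the mutant. Samples of both genotypes spread over the same range. The fitted log2 fold change was -0.77 ± 0.32 (SE), at an adjusted p of 0.325, while the differences within batches were 0.07 and 0.20. With WT replicate 1 the batch 1 difference was -0.53, of the same sign as the fit, and the batch 2 difference 0.13. Leaving out *Smchd1*-null replicate 2 gave -0.09. Its exons overlap the antisense gene *Ulk4* over 475 bases. Among the Dishevelled genes, which relay the signal from Frizzled, *Dvl3* was the most abundant, with 82.1, 64.6, 82.8 and 78.9 CPM in WT and 67.2, 58.3 and 87.0 CPM in the mutant (log2 fold change -0.26, SE 0.15, adjusted p = 0.431). *Dvl2* was at 21.4 to 33.3 CPM in WT and 21.9 to 33.03 CPM in the mutant (log2 fold change 0.06), and *Dvl1* at 3.93 to 6.10 and 5.41 to 8.63 CPM (log2 fold change 0.52, adjusted p = 0.408).

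Of the nuclear factors, 3 were tested and none was called. *Tcf7l2* was the most abundant, with 75.9, 41.1, 44.8 and 54.5 CPM in WT and 31.9, 34.3 and 44.8 CPM in the mutant. *Smchd1*-null replicate 3 was above WT replicate 2 and level with WT replicate 3, so the genotypes overlapped. *Tcf7l2* had a log2 fold change of -0.61 ± 0.19 (SE) and an adjusted p of 0.287, with differences of -0.31 within batch 1 and -0.14 within batch 2, or -0.75 and -0.35 with WT replicate 1. *Tcf7* had 12.7, 7.55, 14.2 and 6.69 CPM in WT and 7.88, 10.2 and 15.2 CPM in the mutant, and its log2 fold change of -0.09 ± 0.28 (SE), at an adjusted p of 0.90, changed sign with the fit. *Tcf7l1*, known as a repressor of Wnt targets, was at 8.91 to 17.8 CPM in WT and 5.63 to 12.1 CPM in the mutant (log2 fold change -0.47, adjusted p = 0.494). *Lef1* had 1, 1, 5 and 4 counts in WT and 2, 2 and 1 counts in the mutant, too few for a comparison.

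The antagonists and feedback inhibitors held no member with an unadjusted p under 0.05. *Sfrp1*, a secreted protein that binds Wnt ligands, had 12.9, 14.7, 11.3 and 6.52 CPM in WT and 8.26, 11.4 and 13.6 CPM in the mutant (log2 fold change -0.08, SE 0.26, adjusted p = 0.904). *Nkd1*, which acts on Dishevelled, had 5.62, 11.5, 12.1 and 13.2 CPM in WT and 11.6, 13.3 and 10.8 CPM in the mutant (log2 fold change 0.35, SE 0.27, adjusted p = 0.543). *Znrf3*, a ubiquitin ligase that removes Frizzled from the surface, had 18.1, 8.44, 18.4 and 16.5 CPM in WT and 19.5, 14.9 and 19.5 CPM in the mutant (log2 fold change 0.12, SE 0.24, adjusted p = 0.831). A single low WT library set the WT spread of *Nkd1* and of *Znrf3*, replicate 1 for the first and replicate 2 for the second. *Sfrp2* was at 1.47 to 3.33 CPM in WT and 2.25 to 2.38 CPM in the mutant.

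*Rnf43*, the relative of *Znrf3*, had 1, 2, 1 and 1 counts in WT and 1, 8 and 3 in the mutant. *Notum*, a secreted enzyme that inactivates Wnt ligands, had 4, 2, 0 and 9 counts in WT and 1, 10 and 2 in the mutant, where the WT library without a count allows up to 0.787 CPM. *Dkk3*, of the Dickkopf family, had 4, 9, 3 and 37 counts in WT and 7, 9 and 2 in the mutant, and its highest value, 6.34 CPM, was in WT replicate 4. At this depth no difference of these genes was detectable. Of the 6 beta-catenin targets listed above, *Axin2*, *Nkd1* and *Znrf3* were thus tested, their log2 fold changes were 0.78, 0.35 and 0.12, and none was called.

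The genes of ligand secretion were *Wls*, the carrier that brings Wnt proteins to the cell surface, and *Porcn*, the enzyme that attaches their lipid. *Wls* had 76.2, 50.6, 47.7 and 72.9 CPM in WT and 30.4, 45.6 and 54.8 CPM in the mutant. *Smchd1*-null replicate 3 was above WT replicates 2 and 3, and the log2 fold change was -0.53 ± 0.21 (SE), at an adjusted p of 0.321, with differences of -0.44 and -0.11 within batches, the first at -0.73 with WT replicate 1. *Porcn* had 14.4, 9.99, 10.5 and 18.01 CPM in WT and 10.5, 12.4 and 9.09 CPM in the mutant (log2 fold change -0.14, SE 0.23, adjusted p = 0.791).

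Fold change varied with gene length in these libraries, and the members are long genes. Spearman's correlation of length with the log2 fold change was -0.38 over all tested genes and -0.25 over the 33 members, which share the same 7 libraries. The tested members had a median length of 4996 bases against 4160 bases for all tested genes, and 22 of 33 were longer than the latter. Among genes over 7000 bases, 9 members had a median log2 fold change of -0.43 and all 3072 genes one of -0.14. Below 0 were 66.7% of these members and 70.9% of these genes. From over 4000 to 7000 bases, 13 members had a median of -0.26 and all 3830 genes one of -0.04, with 61.5% and 56.7% below 0. Among genes of up to 4000 bases, 11 members had a median of -0.09 and all 6403 genes one of 0.12, with 63.6% and 34.6% below 0. With the length trend removed, 6 of 33 members (18.2%) kept an unadjusted p under 0.05, against 9.65% of all genes, and with batch as a covariate 8 members (24.2%) had one, against 7.97%. By edgeR it was 6 members (18.2%) against 5.07%, and by DESeq2 6 members against 4.46%. With batch as a covariate but without WT replicate 1, 3 of 33 members (9.09%) had an unadjusted p under 0.05, against 6.60% of all genes. Of these 3, 2 were among the 10 of the reported fit.

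**Figure D4:**
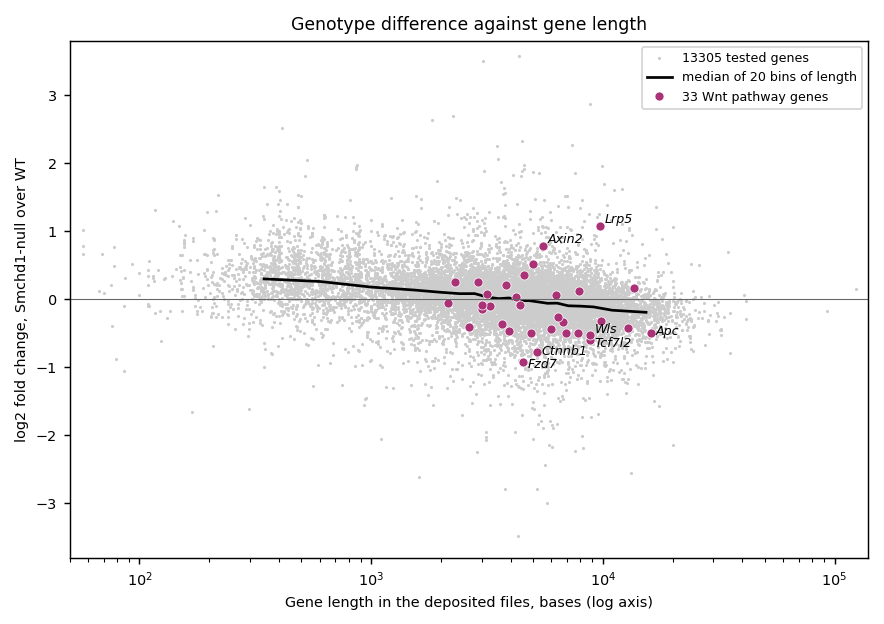
log2 fold change of 13305 tested genes (grey points), *Smchd1*-null over WT, against gene length in bases on a log axis, with the median of 20 bins of length as a black line and the 33 Wnt pathway genes in purple. The line goes from above 0 for short genes to below 0 for long genes, and *Fzd7*, *Axin2* and *Lrp5* lie far from it while *Apc*, *Wls* and *Tcf7l2* are long genes on its lower side.

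**Figure D5:**
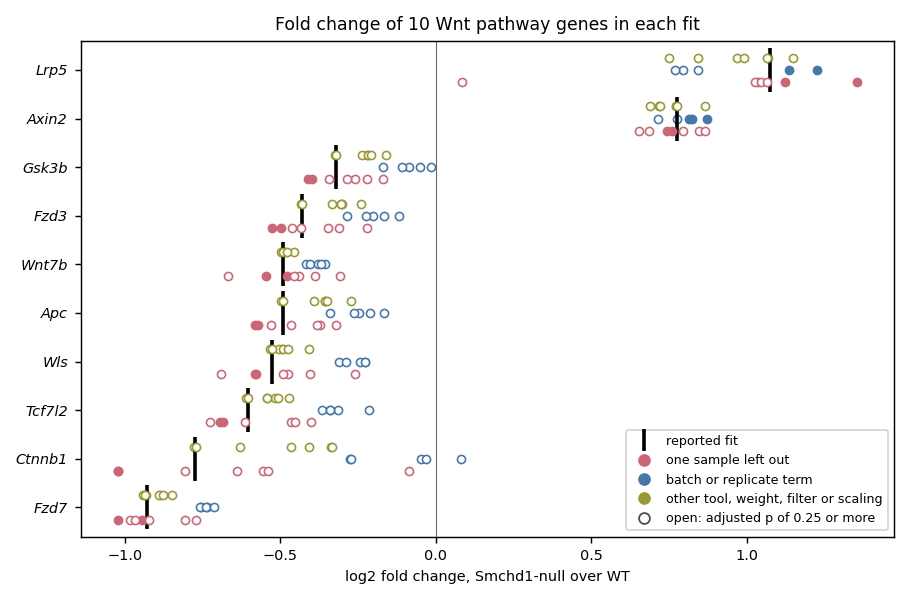
log2 fold change, *Smchd1*-null over WT, of the 10 members with an unadjusted p under 0.05 in each fit, with the reported fit as a black bar, leave-one-out fits in red, fits with a batch or replicate term in blue and other tools, weights, filters or scalings in olive, and filled points for an adjusted p under 0.25. *Fzd7* stays between -1.02 and -0.71 and *Axin2* between 0.65 and 0.87, while *Lrp5* reaches 0.08 in 1 fit and *Ctnnb1* crosses 0 in 1 fit.

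A wider list of 116 other genes of the pathway was read from the same fit. Of these, 74 were tested and 6 had no count in any library. At the cutoff of 0.25, 1 of the 74 was called, lower in *Smchd1*-null NSCs, against 1.08% of all tested genes. With an unadjusted p under 0.05 there were 10 of the 74 (13.5%), close to the 13.9% of all tested genes, 6 lower and 4 higher. The called gene was *Igfbp4*, whose product binds insulin-like growth factors and is also known to antagonise Wnt receptors. It had 154, 216, 85.7 and 342 CPM in WT and 50.7, 65.1 and 68.4 CPM in the mutant, without overlap. *Igfbp4* had a log2 fold change of -1.30 ± 0.29 (SE) and an adjusted p of 0.176, and its highest level was in WT replicate 4, the library with the most astrocyte and oligodendrocyte marker counts. Without that library the adjusted p was 0.168. The call was kept in 13 of 19 alternatives, among them DESeq2 (0.175), the batch covariate (0.0360), the replicate block (0.00764), and the fits without WT replicate 2 (0.0721), WT replicate 3 (0.0103) or *Smchd1*-null replicate 3 (0.0441). It was lost without WT replicate 1 (0.559), *Smchd1*-null replicate 1 (0.996) or *Smchd1*-null replicate 2 (1.00), by edgeR's quasi-likelihood test (0.390), without sample weights (0.556) and with all counted genes (0.485).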

How the data were processed

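Nanopore direct-cDNA libraries of 4 WT and 3 *Smchd1*-null NSC samples were analysed from the deposited counts, which are raw whole-number counts per gene with a gene length column. To make them, the authors used Guppy for base calling, minimap2 2.17 for alignment to mm10 and featureCounts in long-read mode for counting, with primary alignments only. They summed the reads of WT replicate 1 from both batches. Strand-specific counting was not stated, so counts of genes that overlap on opposite strands are uncertain, and a read shared by paralogs was counted at its primary alignment. Symbols and coordinates (1-based) came from a Gencode annotation of GRCm38, which matched 55154 of 55335 identifiers.

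Genes were filtered with filterByExpr (default arguments), scaled by TMM and tested by voomWithQualityWeights, lmFit and eBayes, two-sided, with genotype as the single term and Benjamini-Hochberg adjustment over 13305 genes, after the study's methods. Where no tool is named, adjusted p-values come from this limma fit. Log-CPM values used a prior count of 2. Versions were edgeR 4.0.16, DESeq2 1.42.0 and limma 3.58.1 under R 4.3.3, and the scripts were tested on simulated data. The 17 alternatives chosen at the start were edgeR, DESeq2, voom without sample weights, RLE factors, 2 other filters, a batch covariate, a replicate block, removal of the length trend (lowess, span 0.3) alone or with the block, and 7 leave-one-out fits. The 2 alternatives added after seeing the data were the batch covariate with the length trend removed and without WT replicate 1, which otherwise had 0.5 as its share of each batch. Differences within batches, without WT replicate 1, were also taken with it in each batch, a choice made after seeing the data.

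The members, the wider list of 116 genes and the marker lists were chosen with earlier results of these data known. All members were accounted for by role. Values in every sample were given for members with an adjusted p under 0.25, an unadjusted p under 0.05 or no overlap between genotypes, for the 2 most abundant of each role per length, and for 6 known beta-catenin targets. Others were named with ranges. Of the wider list, genes with an adjusted p under 0.25 were named. Promoter windows came from RefSeq on GRCm38.p6. Floors of 3 counts cover counting error only.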

Additional observations from a re-analysis of the deposited data

Results flagged for a closer look

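In the 4 WT samples, 28 named genes were compared for a sample that stands apart from the other 3, and 2 were found. Chance gives about 1 in 20 of the genes compared, so the number found is near the chance share. The genes were also measured in the same 4 samples and are not independent. *Znrf3* was at a log-CPM of 3.15 in WT replicate 2, from 38 counts, against 4.08 to 4.23 in the other WT samples. *Nkd1* was at a log-CPM of 2.59 in WT replicate 1, from 23 counts, against 3.58 to 3.77 in the others. The group of 3 *Smchd1*-null samples was not compared in this way.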

How the results depend on the processing

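Depth limits the comparison of *Fzd6*, *Lef1*, *Dkk3*, *Rnf43* and *Notum*, which did not reach the filter. The call of *Fzd7* was kept with RLE factors (147 genes called in all) and lost in 16 of 19 alternatives, and 15 of 25 named genes with fold changes kept their sign in every fit. The number of members called, 1, was 0 by edgeR, DESeq2, voom without sample weights, both other filters, the batch covariate with or without WT replicate 1, and removal of the length trend, and with the batch covariate and the length trend removed together it was 1, *Axin2*. It ranged from 0 to 13 when samples were left out, with 12 without WT replicate 2 and 13 without *Smchd1*-null replicate 3, after which no WT sample of batch 1 alone or no *Smchd1*-null sample of batch 2 remained. Without any of the other 5 samples it was 0. The count for the other pathway genes, 1, was 0 by edgeR, without sample weights and with all counted genes, 2 with the batch covariate and the length trend removed together, and 0 to 19 when samples were left out. Over all genes, the 144 calls became 8 by edgeR, 32 by DESeq2, 10 without sample weights, 22 with all counted genes, 67 with a mean count of at least 10, 74 with the batch covariate, 31 without WT replicate 1 in that fit and 58 with the length trend removed, and ranged from 1 to 3153 when samples were left out. The cause of these shifts was not tested.

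Replicate numbers 1 to 3 occur in both genotypes, and number 4 in WT alone, so WT replicate 4 did not inform the genotype difference in the block fits. Deviations of same-numbered samples correlated at -0.04, 0.36 and 0.09 over genes, and not every sample correlated best with its own number, so the samples share a number and are not shown to be pairs. With the replicate block, 2 members were called, *Axin2* (adjusted p = 0.22) and *Lrp5* (0.102), and 2 other pathway genes, against 129 of all 13305 genes, and with the length trend also removed 2 members and 3 other pathway genes were called, against 175 of all genes.

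Signs changed as follows on the log2 scale. *Wnt7a* was at -0.014 with the batch covariate, -0.058 without WT replicate 1 in that fit, -0.019 with the block, and -0.013 with batch and -0.021 with the block once the length trend was removed. *Fzd9* was at -0.0083 without weights, -0.020 with batch, -0.0033 with batch and length and -0.10 with batch but without WT replicate 1. *Fzd10* was at 0.074 by edgeR, 0.060 by DESeq2, 0.21 without weights, 0.12 with batch, 0.11 with batch and length and 0.089 with batch but without WT replicate 1. *Tcf7* was at 0.14 by edgeR and by DESeq2, 0.22 without weights, 0.030 with all counted genes, 0.31 with batch, 0.12 with the block, 0.095 with block and length, 0.29 with batch and length and 0.41 with batch but without WT replicate 1. *Dvl3* was at 0.0084 and 0.011, *Ctnnb1* at 0.081 and *Nkd1* at -0.0044 in batch fits, *Sfrp1* at 0.098 without weights, and *Porcn* at 0.016 and 0.0079 with the block. When samples were left out, fold changes crossed 0 for *Wnt7a* (-0.0057 to 0.14), *Fzd9* (-0.27 to 0.43), *Fzd10* (-0.26 to 0.28), *Tcf7* (-0.22 to 0.16), *Sfrp1* (-0.25 to 0.12) and *Znrf3* (-0.089 to 0.34). Of the fold changes over 25 genes and 19 alternatives, 382 kept direction and call, 28 gained a call, 22 lost it and 43 changed sign. Levels per kilobase moved by less than the spread between samples in all 216 alternatives, and 25 of 27 ranks moved without division by length.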
